A study of Mus musculus with 91 samples.

Results

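Small RNA was compared between wild-type androgenetic haploid embryonic stem cells (AG-haESCs) in culture and wild-type semi-cloned (SC) embryos at E6.5. These 6 libraries, 3 of WT AG-haESCs and 3 of WT SC embryos, were picked by their sample titles from the 91 libraries of the series. AG-haESCs hold a single set of chromosomes of sperm origin. They were kept in medium with Lif and inhibitors of MEK (PD0325901) and GSK3 (CHIR99021). AG-haESCs are known to lose methylation of the H19 and IG DMRs in culture. When such a cell is injected into an oocyte it takes the place of the sperm, and the result is an SC embryo. The labels give the cells as C57BL/6 and the embryos as C57BL/6 male by F1 female. They call the embryo samples semi-cloned embryos without naming a dissected part, whereas legends in the study speak of the epiblast. How many embryos or cultures stand behind a library is not given in the sources used here, so p-values measure the spread between these libraries, which may be technical. Cells and embryos also differ in ploidy, in maternal genome, in growth conditions and in sequencing depth, and these cannot be told apart here.

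Further libraries served for comparison. DKO-SC embryos at E6.5 (n = 3) come from AG-haESCs in which the H19 DMR and the IG DMR are deleted, and they were set against the O48 line of AG-haESCs (n = 3). The labels do not say that O48 carries these deletions or gave these embryos. In the study's methods the plasmids for miRNA deletion go into O48, and its results place those miRNA deletions in the line lacking both DMRs. The study thus ties O48 to that line. It does not say that O48 gave these embryos, so this pairing stays an assumption made here. Control epiblast (n = 4) and control extraembryonic ectoderm (Exe, n = 4) of E6.5 embryos gave reference levels.

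MicroRNAs (miRNAs) are short RNAs cut from hairpins. Each hairpin has a 5p and a 3p arm, and either can be loaded into an Argonaute protein. The mature miRNA pairs with messenger RNAs mainly through its seed, here bases 2 to 8, so miRNAs with one seed share many predicted targets. Naive mouse ES cells are known for the miR-290-295 cluster. The miR-302 cluster (miR-302a to miR-302d and miR-367), which holds miRNAs with the same seed, is known from the post-implantation epiblast. miRNAs of the imprinted *Dlk1-Dio3* domain are made from the maternal chromosome, where the IG DMR is unmethylated.

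The sequences on which the results turn are given 5′ to 3′ from RefSeq (GRCm38.p6), with the seed in capitals. The first set shares a seed across both pluripotency clusters. The miR-290-295 cluster lies at chr7:3218638-3220837 on the plus strand and the miR-302 cluster at chr3:127545238-127545800 on the plus strand.
miR-295-3p: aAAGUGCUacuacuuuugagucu
miR-294-3p: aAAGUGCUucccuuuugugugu
miR-291a-3p: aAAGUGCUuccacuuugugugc
miR-302b-3p: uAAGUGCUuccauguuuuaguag
miR-302d-3p: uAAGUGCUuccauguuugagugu
The next set shows the other abundant products of the miR-290-295 cluster. It includes a pair annotated on opposite strands of one place, miR-292a-5p at chr7:3219200-3219221 (plus) and miR-292b-3p at chr7:3219198-3219218 (minus).
miR-290a-5p: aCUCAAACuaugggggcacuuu
miR-292a-5p: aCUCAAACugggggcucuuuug
miR-292b-3p: aAGAGCCCccaguuugaguau
miR-293-3p: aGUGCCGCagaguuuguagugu
The miR-183, miR-96 and miR-182 cluster, at chr6:30165923-30169732 on the minus strand, gave the most abundant miRNA of the cells. Its 5p arms have near-identical seeds.
miR-183-5p: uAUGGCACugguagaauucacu
miR-182-5p: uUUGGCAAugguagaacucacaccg
miR-96-5p: uUUGGCACuagcacauuuuugcu
Among the *Dlk1-Dio3* miRNAs, which span chr12:109563710-110278115, these 5 had the highest mean CPM over the embryo libraries. The places of miR-541-5p and miR-434-5p rest in part on embryo library 3. Each of the 5 has a seed of its own.
miR-541-5p: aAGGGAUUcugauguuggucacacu
miR-127-3p: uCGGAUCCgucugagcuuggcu
miR-434-5p: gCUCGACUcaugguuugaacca
miR-370-3p: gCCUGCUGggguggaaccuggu
miR-409-3p: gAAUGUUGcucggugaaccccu
Members of the miR-200 family and let-7 are shown last. miR-200b-3p and miR-200c-3p share a seed and both rose, as did miR-141-3p, which has another seed. The let-7 members shown share a seed and fell, whereas let-7b-5p of the same family rose.
miR-200b-3p: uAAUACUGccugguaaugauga
miR-200c-3p: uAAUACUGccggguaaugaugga
miR-141-3p: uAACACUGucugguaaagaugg
let-7a-5p: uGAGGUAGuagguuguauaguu
let-7f-5p: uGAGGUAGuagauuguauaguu
let-7g-5p: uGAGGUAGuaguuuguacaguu

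The cell libraries held 3813865 to 5014804 counts and the embryo libraries 258279, 338127 and 522390. At least 1 count was found for 800 to 813 miRNAs in each cell library. Embryo libraries 1, 2 and 3 had 702, 694 and 444. When every library was thinned to 258279 counts, the cells had 627 to 655 miRNAs and the embryos 677, 660 and 444. The limit of detection was set at 3 counts in a library, which is 0.598 to 0.787 counts per 1000000 (CPM) in the cells and 5.74 to 11.6 CPM in the embryos. Such limits cover counting error only. Low miRNAs of the cells therefore could be seen where those of the embryos could not.

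Embryo library 3 stood apart. Across 602 miRNAs its log2 CPM correlated with embryo libraries 1 and 2 at r = 0.852 and 0.843, whereas these correlated with each other at 0.966 and the cell libraries with each other at 0.989 to 0.991. Libraries 1 and 2 correlated with the mean of the DKO-SC embryos at 0.975 and 0.963, and library 3 at 0.832. The miR-302 cluster, the defining epiblast marker, took 23.6% and 21.4% of the counts of embryo libraries 1 and 2. This lay within or just above the 14.9% to 23.3% of control epiblast. It took 2.73% of library 3, where control Exe had 1.99% to 3.43%. The Sfmbt2 intronic cluster, which is abundant in trophoblast and took 13.3% to 25.1% of control Exe, took 3.53%, 5.76% and 0.596% of the 3 embryo libraries. In library 3 both clusters were below the range of control epiblast. It stays in the main values, and values without it are given for a number of the groups and miRNAs whose calls change.

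Of 603 miRNAs with enough counts to test, 105 (17.4%) were higher and 132 (21.9%) lower in the embryos (edgeR quasi-likelihood test, Benjamini-Hochberg adjusted p under 0.05 and an absolute log2 fold change above 0.5). All log2 fold changes here are embryos minus cells. Without embryo library 3, 148 (21%) and 201 (28.5%) of 706 passed. These held 96 of the 105 and all 132. Leaving out any 1 cell library instead left 58 to 63 higher and 67 to 73 lower, with only 491 to 493 miRNAs tested. Thinning to one depth gave 103 higher and 91 lower of 395 testable miRNAs, of which 91 and 90 were among those of the full counts. The direction of the balance depended on the scaling. The median log2 fold change over all miRNAs was -0.28 with TMM factors, and library totals alone moved each value up by a median of 0.55, giving 93 lower miRNAs while all 105 higher ones passed again. All 105 higher miRNAs and 87 of the 132 lower ones passed under each of 4 scalings, which were TMM factors, RLE factors, library totals and TMM factors set without the miR-290-295, miR-302 and *Dlk1-Dio3* lists (reduced TMM factors). Of the miRNAs named here, miR-127-3p, miR-135a-5p, miR-144-3p, miR-192-5p, miR-211-3p, miR-26a-5p, miR-290a-5p, miR-293-3p, miR-297a-5p, miR-302d-3p, miR-363-3p, miR-434-5p, miR-451a, miR-5126, miR-541-5p, miR-543-3p, miR-871-3p, miR-93-5p and miR-1247-5p kept their direction but lost the call when some library other than embryo library 3 was left out. In the embryos, as in any bulk sample, fewer cells of a type and less RNA per cell cannot be told apart.

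**Figure D1:**
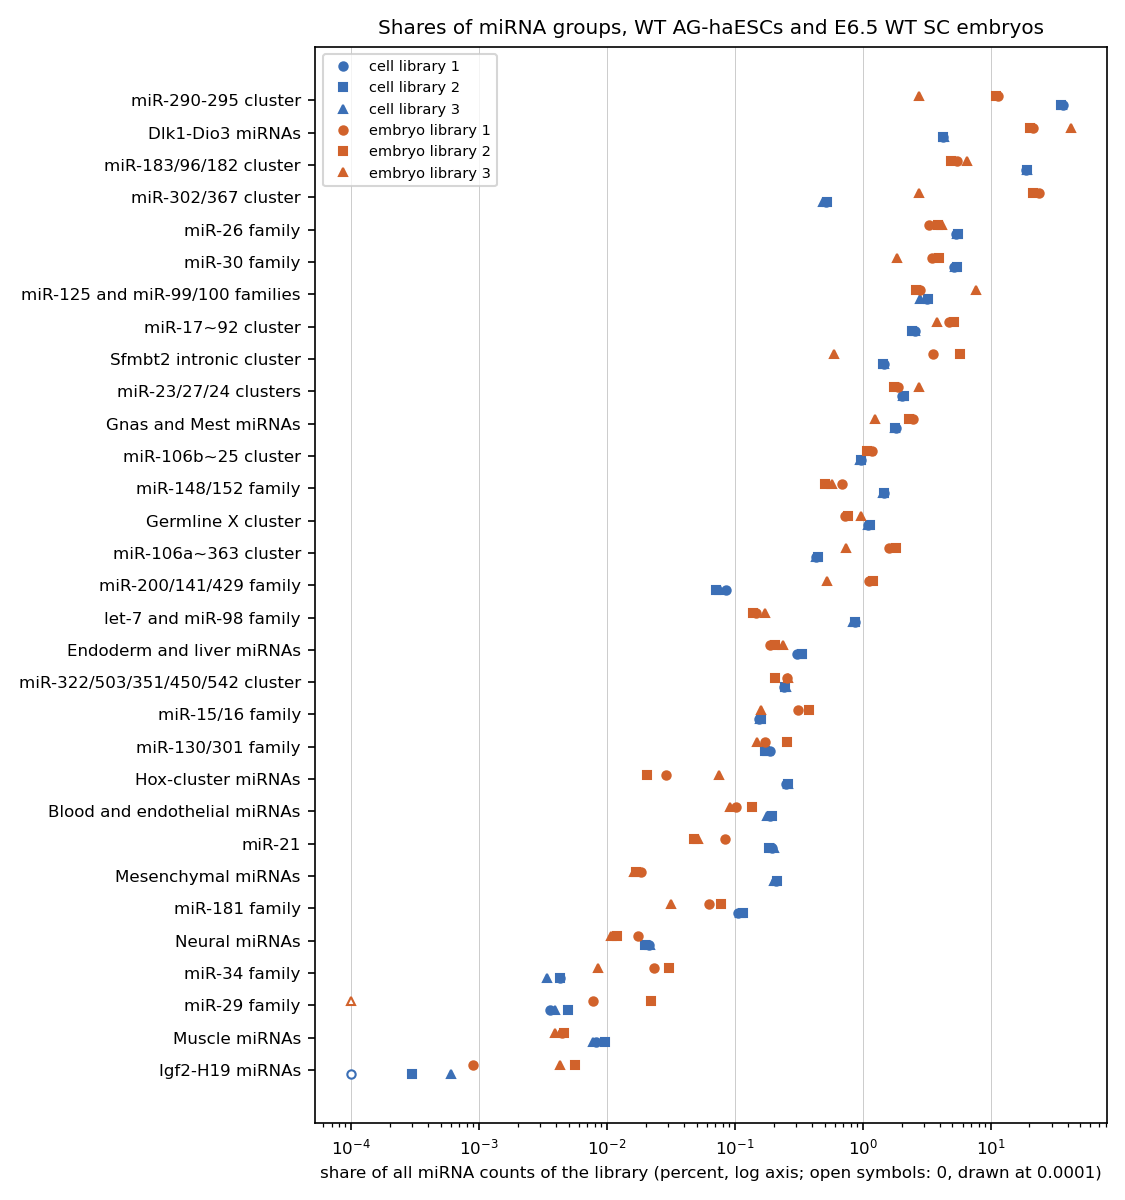
Share of all miRNA counts (percent, log axis) taken by each miRNA group in the 3 WT AG-haESC libraries (blue) and the 3 E6.5 WT SC embryo libraries (orange), with open symbols for a share of 0. The miR-290-295 cluster took 35.6% to 36.5% of the cells and 2.73% to 11.4% of the embryos, and embryo library 3 (triangle) departs from the other embryo libraries for the miR-302, *Dlk1-Dio3* and Sfmbt2 groups. Entries on opposite strands that share reads are counted under both names.

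Shares of counts need no scaling factor and are given first for each group, as in the plot of group shares. With 3 against 3 libraries, the exact two-sided permutation test cannot go below p = 0.1, which becomes 0.129 after adjustment over the lists. A share that does not overlap between cells and embryos is therefore given as such, with no call.

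The miR-290-295 cluster was the largest group of the cells. It took 36.5%, 35.6% and 36.2% of the 3 cell libraries (36.1% ± 0.454, SD, n = 3) and 11.4%, 11.01% and 2.73% of the 3 embryo libraries. The groups did not overlap. Of 18 members tested, 13 were lower in the embryos and none higher, with a median log2 fold change of -2.79. Without embryo library 3, 16 of 18 were lower, and 10 passed under all 4 scalings. Some of these members are pairs on opposite strands with the same reads, such as miR-290a-5p with miR-290b-3p. Such reads enter the share and the member counts under both names. Over all miRNAs, entries repeating another held 10.7% to 10.9% of cell counts and 1.64% to 5.63% of embryo counts.

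Within the cluster the fall was uneven. miR-292a-5p, in the cells the most abundant member, had 68696, 67429 and 69374 CPM there and 6864, 4701 and 7190 CPM in the embryos (log2 fold change -3.99 ± 0.32, SE, adjusted p = 2.72e-04 by edgeR). All embryo libraries, library 3 included, lay far below all cell libraries. miR-292b-3p, annotated on the opposite strand of the same place, had nearly the same count in every library, so these reads cannot be told apart and are counted under both names. miR-290a-5p, which has the seed of miR-292a-5p, had 24827, 24217 and 24413 CPM in the cells and 4489, 4966 and 136 CPM in the embryos. It fell by 3.53 on the log2 scale (adjusted p = 0.0291), with embryo library 3 the lowest, and did not pass with library totals (adjusted p = 0.055). miR-293-3p had 56436, 50308 and 54574 CPM against 19842, 15971 and 2594 CPM (log2 fold change -2.66 ± 0.64, adjusted p = 0.0143).

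miR-295-3p, a member with the ES-cell seed, was the exception among the abundant products. It had 53687, 54179 and 51838 CPM in the cells and 46400, 44769 and 2575 CPM in the embryos. Embryo libraries 1 and 2 were only slightly below the cells and library 3 was far below. The difference did not pass (log2 fold change -1.36 ± 0.82, adjusted p = 0.224). Without library 3 it was -0.85 and passed. In control epiblast the mean was 55897 CPM. Other members with this seed, miR-294-3p and miR-291a-3p, were at 1444 to 1546 and 713 to 806 CPM in the cells and at 294 to 538 and 123.9 to 199.1 CPM in the embryos, and both passed.

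The miR-302 cluster rose in the embryos. It took 0.514%, 0.521% and 0.482% of the cell libraries and 23.6%, 21.4% and 2.73% of the embryo libraries, a mean 31.4-fold higher. All 9 members tested were higher in the embryos, under all 4 scalings and without library 3, with a median log2 fold change of 3.99. miR-302b-3p, its main product, had 3657, 3646 and 3406 CPM in the cells and 208632, 189068 and 20749 CPM in the embryos (log2 fold change 4.70 ± 0.78, adjusted p = 0.00326). It was the most abundant miRNA of embryo libraries 1 and 2. In library 3 it was far below that level and still above each cell library. Control epiblast had a mean of 158757 CPM. The 5p arm of another hairpin, miR-302a-5p, rose from 1028, 1103 and 1009 CPM to 14787, 11888 and 5552 CPM (log2 fold change 2.79 ± 0.39, adjusted p = 0.00173).

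To compare the total of the seed that both clusters share, counts were summed over miRNAs with identical bases 2 to 8. The family with seed AAGUGCU, made up of the first 5 miRNAs shown above, summed to 59758, 60299 and 57620 CPM in the cells and to 258282, 236938 and 23924 CPM in the embryos. Libraries 1 and 2 were above every cell library and library 3 was below. The sum did not pass the test (log2 fold change 0.65 ± 0.63, adjusted p = 0.416). Without library 3 it was 1.59 and passed (adjusted p = 1.38e-06). miR-302a-3p, for which no RefSeq sequence was matched, is not in this sum.

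The makeup of this family changed in every embryo library. miR-295-3p gave 89.8%, 89.8% and 90.0% of its counts in the cells and 17.96%, 18.89% and 10.76% in the embryos. miR-302b-3p gave 6.12%, 6.05% and 5.91% in the cells and 80.8%, 79.8% and 86.7% in the embryos. This ratio is taken within a library and does not depend on scaling, and in it library 3 was like the other 2 embryo libraries.

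**Figure D2:**
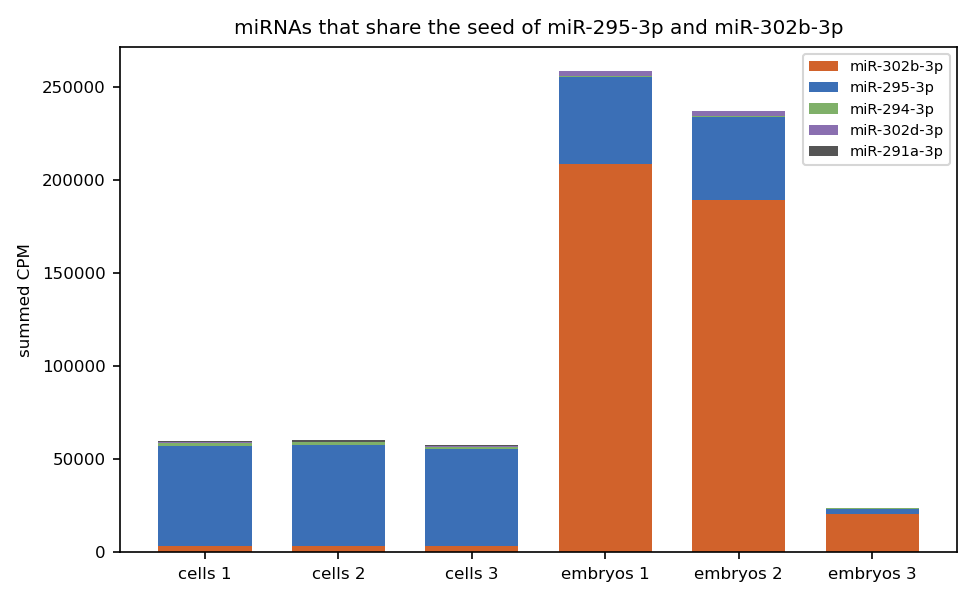
Summed CPM (linear axis from 0) of the 5 miRNAs that share the seed of miR-295-3p and miR-302b-3p, one bar per library, stacked by miRNA. miR-295-3p makes up 89.8% to 90.0% of each cell bar and miR-302b-3p 79.8% to 86.7% of each embryo bar, while embryo library 3 has a total of 23924 CPM, below the cells.

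Over all seeds, 70 of 407 families (17.2%) were higher and 120 (29.5%) lower in the embryos. Without embryo library 3 these were 111 (23.4%) and 135 (28.4%) of 475. Among the most abundant families that passed, the seed CUCAAAC of miR-292a-5p, miR-290a-5p and miR-293-5p summed to 104900, 103373 and 104581 CPM in the cells and 13226, 11185 and 8204 CPM in the embryos (log2 fold change -4.09 ± 0.39, adjusted p = 1.21e-04). The seeds of miR-183-5p, miR-182-5p, miR-541-5p and miR-292b-3p have 1 member each here and repeat those miRNAs. The seed UCAAGUA of miR-26a-5p and miR-26b-5p fell by 1.34 on the log2 scale (adjusted p = 0.0109). In this fit the TMM factor of cell library 3 was 0.635, against 0.819 and 0.827 for the other cell libraries.

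The miR-183 cluster, known from sensory cells and ES cells, took 18.97%, 19.28% and 19.28% of the cells and 5.43%, 4.85% and 6.49% of the embryos. Of 6 members, 5 were lower in the embryos and none higher, 3 of them under all 4 scalings. miR-183-5p was the most abundant miRNA of every cell library, with 110187, 112052 and 114248 CPM. It had 22066, 22156 and 16474 CPM in the embryos (log2 fold change -3.02 ± 0.27, adjusted p = 3.2e-04). miR-182-5p had 72173, 73237 and 71438 CPM against 24713, 21626 and 44847 CPM, with library 3 the highest of the embryos (log2 fold change -1.77 ± 0.38, adjusted p = 0.00886). With reduced TMM factors miR-182-5p did not pass (-1.05, adjusted p = 0.0808). miR-96-5p did not pass: 6590, 6709 and 6420 CPM in the cells overlapped 7326, 4633 and 3427 CPM in the embryos. Its adjusted p was 0.0516, and without library 3 it passed with a log2 value of -0.78.

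The *Dlk1-Dio3* miRNAs were the largest group of embryo library 3 and came after the miR-302 cluster in embryo libraries 1 and 2. They took 4.23%, 4.21% and 4.33% of the cell libraries and 21.2%, 20.3% and 42.3% of the embryo libraries. Control epiblast had 13.4% to 15.2%. Of 88 members tested, 51 were higher in the embryos and 2 lower, beside 17.4% and 21.9% of all miRNAs. The median log2 fold change was 1.92, against -0.28 for all miRNAs. All 51 passed under the 4 scalings. Without embryo library 3, 61 were higher and 4 lower of 90.

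The most abundant of them in the embryos by mean CPM was miR-541-5p, with 4418, 4197 and 4509 CPM in the cells and 30107, 25008 and 143717 CPM in the embryos (log2 fold change 3.44 ± 0.75, adjusted p = 0.00936). In embryo libraries 1 and 2 miR-127-3p was above miR-541-5p. Library 3 was several times above the other embryo libraries, and without it the log2 fold change was 2.02 and still passed. miR-127-3p, an antisense regulator of the retrotransposon-like gene Rtl1, had 12493, 12678 and 12811 CPM against 46077, 35271 and 73827 CPM (log2 fold change 1.51 ± 0.37, adjusted p = 0.0149). The 2 arms of the miR-434 hairpin did not behave alike in library 3. miR-434-5p was at 10011, 8369 and 62719 CPM in the embryos and miR-434-3p at 11028, 12600 and 8367 CPM, against 1430 to 1595 and 1907 to 1929 CPM in the cells. Both rose, by 3.71 (adjusted p = 0.0122) and 1.92 (adjusted p = 0.00219). Without library 3 these were 1.99 and 1.998 and both passed. miR-370-3p and miR-409-3p rose by 3.40 and 2.09. The 2 members that fell were miR-543-3p, with 1314 to 1484 CPM in the cells and 414 to 1047 CPM in the embryos, and miR-1247-5p. miR-543-3p did not pass with library totals (adjusted p = 0.103) or reduced TMM factors (adjusted p = 0.0864). These 2 were named after their values were seen.

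The comparison of DKO-SC embryos with O48 cells used separate libraries. There, 253 of 682 miRNAs (37.1%) were higher and 195 (28.6%) lower in DKO-SC embryos than in O48 cells. Of the 105 miRNAs higher in WT embryos, 91 (86.7%) were also higher there and none lower. Of the 132 lower ones, 116 (87.9%) were also lower and 2, miR-543-3p and miR-297a-5p, were higher. miR-302b-3p had a mean of 1114 CPM in O48 cells and 179905 CPM in DKO-SC embryos, miR-292a-5p 82198 and 6953 CPM, and let-7g-5p 4204 and 143.7 CPM. The miR-290-295 cluster had 16 of 18 members lower and the miR-302 cluster all 10 higher.

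The difference between the WT and O48 comparisons was tested directly, as the WT contrast minus the O48 contrast, and rests on the pairing assumed above. Of 729 miRNAs, 105 (14.4%) had a smaller, or more negative, value in WT and 11 (1.51%) a larger one. *Dlk1-Dio3* miRNAs made up 76 of the 105, from 99 tested. The Sfmbt2 cluster gave 9 of 67 tested, a share near the 14.4% of all miRNAs. *Dlk1-Dio3* miRNAs took 0.202% to 0.217% of O48 cells and 21.4% to 23.1% of DKO-SC embryos. The embryo shares of WT libraries 1 and 2, 21.2% and 20.3%, were close to this, while the WT cells were at 4.21% to 4.33%. For miR-434-3p the WT cells had 1907 to 1929 CPM and the O48 cells a mean of 99.9 CPM, with 11750 CPM in DKO-SC embryos. Its difference of contrasts was -4.45 ± 0.32 (adjusted p = 2.98e-06, edgeR).

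**Figure D3:**
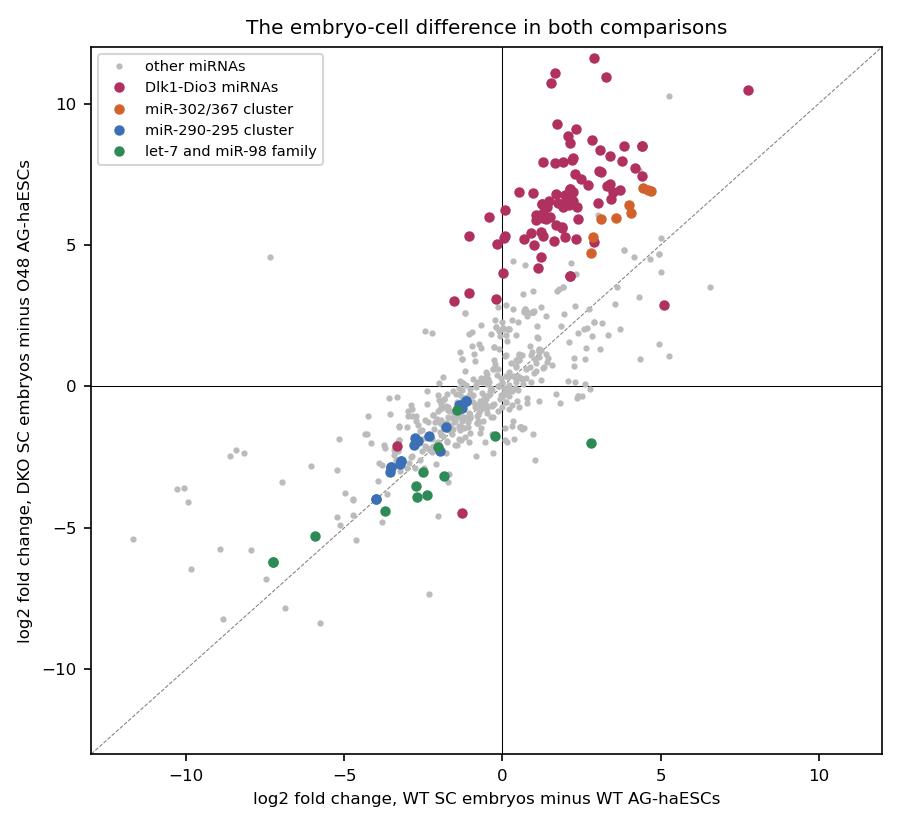
Log2 fold change of embryos minus cells for each miRNA tested in both comparisons, WT on the horizontal axis and DKO-SC embryos minus O48 cells on the vertical axis, with a dashed line where both are equal. The miR-290-295 and let-7 groups lie mostly below 0 on both axes, the miR-302 cluster lies above 0 on both, and most points of the *Dlk1-Dio3* domain lie well above the line, with medians of 1.92 and 6.54. Points at the far left had no counts in the WT embryos, where the fitted value depends on the prior count.

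let-7, whose maturation is blocked by the RNA-binding protein Lin28 in pluripotent cells, was lower in the embryos. The let-7 and miR-98 family took 0.858%, 0.860% and 0.841% of the cells and 0.146%, 0.137% and 0.172% of the embryos, 0.178 times the cell mean. Of 13 members tested, 10 were lower and 1 higher, with 8 of the lower ones under all 4 scalings. let-7f-5p had 3332, 3388 and 3308 CPM in the cells and 482, 314 and 325 CPM in the embryos (log2 fold change -3.72 ± 0.33, adjusted p = 3.2e-04). let-7g-5p had 2159, 2057 and 2076 CPM against 76.9, 24.9 and 54.2 CPM (log2 fold change -5.91 ± 0.51, adjusted p = 3.2e-04). Cells and embryos were far apart for both, and library 3 was among the other embryo libraries. The summed seed family GAGGUAG fell by 3.29 (adjusted p = 2.13e-04). The member that rose was let-7b-5p, at 14.4, 6.38 and 5.24 CPM in the cells and 88.7, 97.6 and 77.4 CPM in the embryos. It was not higher in DKO-SC embryos, with 3.80 CPM on average, and its difference between the comparisons passed (4.87 ± 0.996, adjusted p = 0.00411).

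The miR-200 family (miR-200a, b and c, miR-141 and miR-429), which targets Zeb1 and Zeb2 and marks epithelium, rose. It took 0.0851%, 0.0714% and 0.0769% of the cells and 1.12%, 1.204% and 0.524% of the embryos, 12.2-fold higher on average. All 7 members tested were higher, under all 4 scalings. miR-200c-3p had 157, 129 and 159 CPM in the cells and 4951, 5687 and 1282 CPM in the embryos (log2 fold change 4.17 ± 0.58, adjusted p = 0.00166). miR-141-3p, from the same locus on chromosome 6, rose from 15.2 to 17.6 CPM to 495.6 to 681 CPM. miR-200b-3p, from the locus on chromosome 4, rose by 2.07 (adjusted p = 0.00605). In the O48 comparison its log2 fold change was 0.20 and did not pass, with means of 2127 CPM in O48 cells and 3279 CPM in DKO-SC embryos. The difference between the comparisons, 1.96 ± 0.68, did not pass either (adjusted p = 0.0724). The miR-200b-5p arm was also among the largest rises, from 16.8 to 20.3 CPM to 479, 486.2 and 1405 CPM.

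The proliferation cluster miR-17~92 and its paralogs gave mixed results. miR-17~92 took 2.40% to 2.56% of the cells and 4.69%, 5.18% and 3.80% of the embryos. Of 11 members, 2 were higher and 1 lower, and the median log2 fold change was -0.15 with TMM factors and 0.42 with library totals only. Without embryo library 3, 2 were higher and 3 lower, and the median with TMM factors was 0.29. Of the arms in this list, 2 lie on the X chromosome, and the list holds more than 1 miR-92a hairpin. Reads of miR-92a-3p therefore cannot be assigned to 1 hairpin. miR-92a-3p, the main product of the list, had 21667, 20642 and 22297 CPM in the cells and 43927, 47941 and 34695 CPM in the embryos. These do not overlap. The difference did not pass with TMM factors (log2 fold change 0.42 ± 0.26, adjusted p = 0.239) and passed with library totals (0.97, adjusted p = 0.0279) and reduced TMM factors (1.102, adjusted p = 0.0136). miR-20a-5p fell by 2.22 (adjusted p = 0.00706) while the other arm of its hairpin, miR-20a-3p, rose by 1.95 (adjusted p = 0.0113). In the X-linked paralog, miR-363-3p, which has the seed of miR-92a-3p, rose by 1.17 (adjusted p = 0.0405) and miR-20b-5p had a log2 fold change of 0.47 (adjusted p = 0.326), or 1.17 with reduced TMM factors, where it passed (adjusted p = 0.0365). In the miR-106b~25 cluster miR-93-5p fell by 1.95 (adjusted p = 0.0214) but did not pass with library totals (adjusted p = 0.0913) or reduced TMM factors (adjusted p = 0.0821), and miR-25-3p was at 0.05 (adjusted p = 0.921). Without embryo library 3, miR-106b~25 had 2 higher and 3 lower of 6, and the X-linked paralog 3 of 6 higher and 0 lower.

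The arm ratio was followed in 82 hairpins with at least 100 counts in each library. In 28 of them (34.1%) the 5p shares of cells and embryos did not overlap, and in 5 (6.1%) they also differed by more than 20 points. miR-20a had 96.7%, 97.3% and 97.99% of its counts on the 5p arm in the cells and 55.5%, 51.4% and 84.4% in the embryos. miR-335, from the imprinted gene Mest, went from 12.84% to 13.98% to 43.8%, 44.9% and 22.2%. miR-15b went from 71.3% to 74.7% to 94.8% to 96.6%. miR-423 went from 34.7% to 36.7% to 53.04%, 61.8% and 94.2%, and miR-412 from 54.3% to 61.8% to 23.7%, 32.5% and 8.63%. These 5 were chosen for this size and are given without a test. In 77 of the 82 the same arm held the majority in both groups.

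Members of other families fell too, beside 21.9% of all miRNAs. The family of miR-148 and miR-152 had 4 of 6 members lower and none higher, with miR-148a-3p at 11658 to 11900 CPM in the cells and 4631 to 6231 CPM in the embryos (log2 fold change -1.71 ± 0.27, adjusted p = 0.00264). miR-148b-3p fell by 3.38. In the miR-26 family 2 of 4 were lower, neither of them under all 4 scalings. miR-26a-5p had 52128, 54317 and 53001 CPM against 31802, 37254 and 41378 CPM (log2 fold change -1.06 ± 0.28, adjusted p = 0.0194). In the miR-30 family 3 of 11 were lower and 1 higher, a share near that of all miRNAs, with 1 lower under all 4 scalings, and miR-30e-5p fell by 1.98 (adjusted p = 0.00809) while miR-30c-5p did not pass. The miR-181 family had 4 of 7 lower, 2 of them under all 4 scalings. Without embryo library 3 it had 2 higher and 4 lower of 8, beside 21% and 28.5% of all miRNAs. In that fit the miR-30 family had 2 higher and 4 lower of 11, and the miR-26 family 3 of 4 lower.
Abundant miRNAs that did not pass included miR-191-5p, at 32386 to 34142 CPM in the cells and 20188 to 42954 CPM in the embryos, and miR-99b-5p, at 21443 to 23130 and 13944 to 59265 CPM. In both, embryo library 3 was the highest of all 6 libraries. Without it both passed as lower, miR-191-5p at -1.16 (adjusted p = 2.01e-04) and miR-99b-5p at -1.20 (adjusted p = 7.03e-05). The lists of miR-130 with miR-301, miR-15 with miR-16 and miR-23/27/24 had 1 of 8, 3 of 10 and 1 of 9 members lower. The miR-29 list had 0 of 2 lower and miR-322 with miR-503 2 of 10. None in these lists was higher, and the 3 of miR-15 with miR-16 passed under all 4 scalings. Without embryo library 3, 21% of all miRNAs were higher and 28.5% lower. There, miR-23/27/24 had 6 of 9 lower and miR-130 with miR-301 had 3 higher and 2 lower of 8. In that fit miR-15 with miR-16 had 2 higher and 3 lower of 10, and the miR-322 list 1 higher and 3 lower of 12.

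Lists of miRNAs from other cell types were followed because either sample could hold such cells. The mesenchymal list took 0.2015% to 0.2134% of the cells and 0.0163% to 0.0183% of the embryos, 0.0819 times the cell mean, and all 7 members tested were lower in the embryos under all 4 scalings. Its largest member, miR-143-3p, was at 1286 to 1360 CPM in the cells and 49.8 to 96.8 CPM in the embryos. Hox-cluster miRNAs took 0.252% to 0.261% and 0.0205% to 0.0743%, with 5 of 6 lower. miR-615-3p, from the Hoxc locus, was at 856 to 909 CPM in the cells and 0 to 19.4 CPM in the embryos, and miR-196a-5p at 368 to 443 CPM and 0 to 9.57 CPM. miR-21a-5p, abundant in fibroblasts, fell by 2.28 (adjusted p = 0.0021). O48 cells had 1300 CPM of miR-143-3p and 282 CPM of miR-615-3p on average, so both lines of cells had these RNAs. Whether other cells in the cultures took part was not tested.

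The blood and endothelial list took 0.176% to 0.194% of the cells and 0.0918% to 0.136% of the embryos, with 2 of 15 members higher and 2 lower. The erythroid miR-451a was at 0, 1.99 and 0 CPM in the cells and 17.7, 74.7 and 31.0 CPM in the embryos (adjusted p = 0.0214). miR-144-3p, from the same locus, passed with library 3 (adjusted p = 0.0421) and not without it (adjusted p = 0.138). miR-150-5p, known from lymphocytes, was higher in the cells. The neural list took 0.0199% to 0.0215% and 0.0108% to 0.0174%, the endoderm and liver list 0.3057% to 0.3355% and 0.1866% to 0.2377%, and the muscle list 0.0078% to 0.0097% and 0.0039% to 0.0046%. The neural and endoderm lists each had 1 of 5 higher and 1 lower, and the muscle list 2 of 3 higher and 1 lower. Without embryo library 3 the neural list had none higher and 2 of 8 lower, the endoderm list 2 of 6 higher and 1 lower, and the muscle list none of 4 higher and 1 lower. The germline X cluster took 1.09% to 1.14% and 0.717% to 0.968%, with 6 of 27 lower and none higher, a share of lower calls near the 21.9% of all miRNAs. Only 2 of the 6 passed under all 4 scalings, and without embryo library 3 it had 12 of 29 lower. The Sfmbt2 list, whose near-identical copies share reads, took 1.43% to 1.47% of the cells. With 2 of 51 higher and 1 lower it gave few calls, and without embryo library 3 it had 17 higher and 2 lower of 60. miR-675 and miR-483 of the Igf2-H19 domain had too few counts to test. Their summed share was at most 0.0056% in any of the 6 libraries, against 0.00771% to 0.0106% in DKO-SC embryos.

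The largest single differences were at low levels. Among miRNAs with at least 10 counts in each embryo library, miR-341-5p of the *Dlk1-Dio3* domain was at 0.442, 0 and 0 CPM in the cells and 62.1, 55.5 and 73.6 CPM in the embryos. miR-203-3p, a miRNA of stratified epithelium, was at 6.03 to 21.3 CPM in the cells and 964, 680 and 287 CPM in the embryos (log2 fold change 4.96 ± 0.67, adjusted p = 0.00159). It shares its counts with miR-203b-5p on the opposite strand. miR-488-3p, miR-135a-5p, miR-653-5p and miR-5126 rose from at most 6.78 CPM in any cell library to 28.7 to 228 CPM in the embryos.

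In the other direction miR-211-5p, from an intron of Trpm1, was at 902, 866 and 909 CPM in the cells and 2.96, 3.83 and 0 CPM in the embryos (adjusted p = 2.72e-04). Other miRNAs had no count in any embryo library. Their mean CPM in the cells was set against 3 counts per embryo library, a mean of 8.74 CPM, with no scaling factor. On this scale miR-147-5p, at up to 180 CPM, was at least 18.9-fold lower in the embryos, miR-150-3p at least 7.12-fold, miR-145a-5p at least 6.14-fold, miR-184-3p at least 5.63-fold and miR-147-3p at least 5.26-fold. miR-211-3p and miR-1249-3p were at least 2.61-fold and 2.24-fold lower. miR-147-5p was lower in DKO-SC embryos too, with means of 140 CPM in O48 cells and 4.46 CPM in these embryos.

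**Figure D4:**
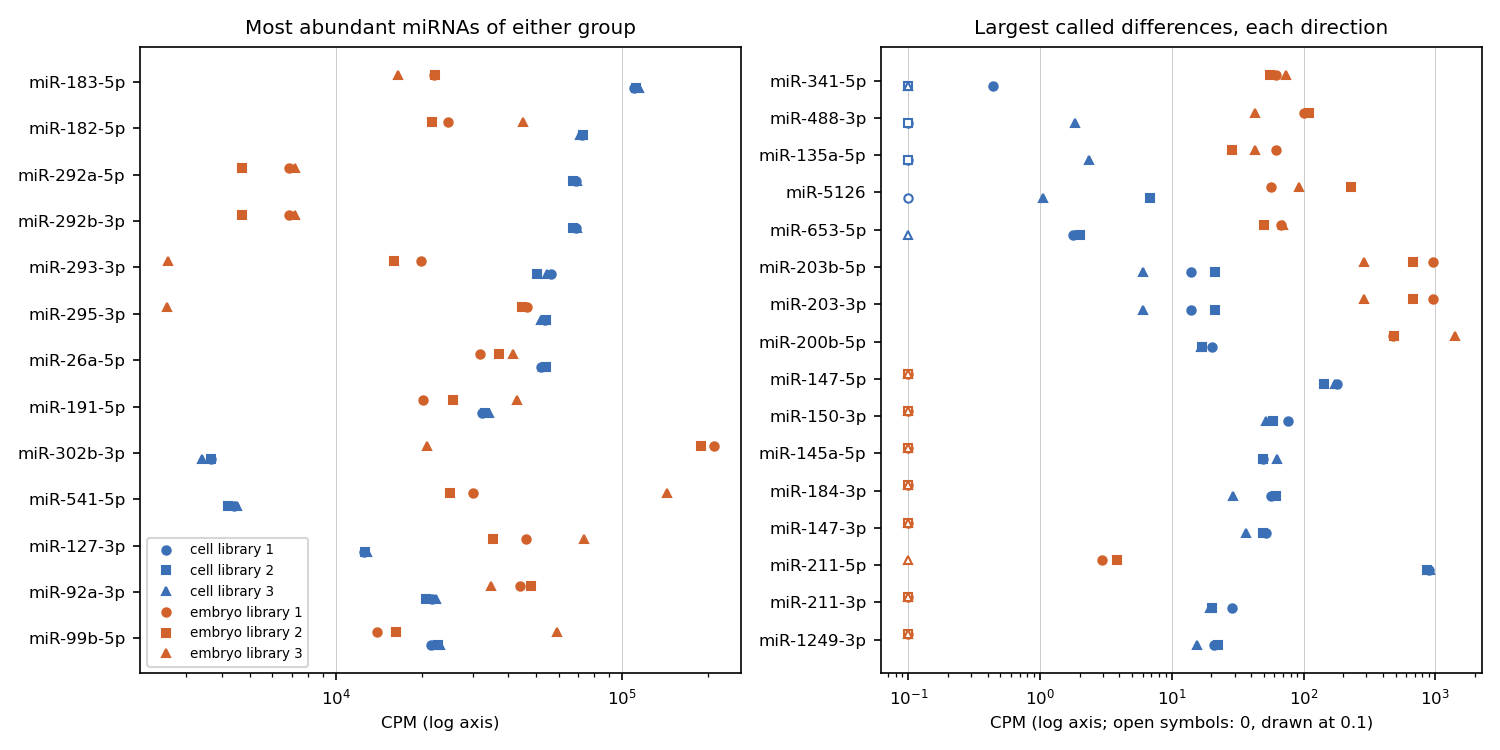
CPM (log axis) per library of the 8 most abundant miRNAs of each group (left) and of the 8 largest called differences in each direction with no overlap between groups (right), cells in blue and embryos in orange, with open symbols for 0 counts. On the left, miR-302b-3p is at 3406 to 3657 CPM in the cells and 20749 to 208632 CPM in the embryos and miR-183-5p at 110187 to 114248 and 16474 to 22156 CPM. On the right, 7 miRNAs have no count in any embryo library.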

How the data were processed

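Small RNA libraries were made by CAS-seq, and the deposited table holds raw read counts per mature miRNA for 1504 entries. Per the study's methods the authors used fastp 0.20.1 for trimming and Bowtie 1.2.1.1 for mapping to GRCm38. They then counted reads on miRBase mature sequences with a tolerance of 2 nucleotides at the 3′ end. Their DESeq2 version was 1.30.1. Here, edgeR 4.0.16 in R 4.3.3 fitted quasi-likelihood models to these counts with TMM factors and filterByExpr (minimum count 10). The fit held only the 6 libraries, and the 12 libraries of both comparisons for the difference between them. Calls needed a Benjamini-Hochberg adjusted p under 0.05 and an absolute log2 fold change over 0.5. CPM are counts per 1000000 counts of the library. The table holds only miRNA reads, so its totals (258279 to 5014804) are not full sequencing depth. Correlations used log2(CPM + 5). RefSeq sequences were matched to 1275 entries. Of the entries, 46 pairs held the same counts (within 1 count or a relative 0.01), 17 of them on opposite strands of 1 place.

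Named miRNAs were the 8 most abundant of each group, the 8 largest called changes in each direction without overlap of the groups and with 10 counts in each library of the higher group, the 2 most abundant tested members of each list, the 6 called seed families with the largest sums and the 6 smallest p-values of the difference between comparisons. Other names were added after their values were seen. The members and lists were chosen with earlier results of these data known. Alternatives were other scalings, filters, DESeq2 1.42.0, thinning, a replicate block and leaving out each library. Keeping entries with the same counts once was added after seeing the data. Tested on simulated data with 4-fold changes, the fit of 579 miRNAs called 62.3% of the changed and 1.29% of the unchanged ones. For the 689 miRNAs of the difference between comparisons these were 21% and 0%.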

Additional observations from a re-analysis of the deposited data

Results flagged for a closer look

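The contrast of embryos with cells differed between WT and the pair of O48 cells and DKO-SC embryos, whose kinship is assumed, by a test of the difference itself (edgeR quasi-likelihood, 12 libraries). It was smaller in WT for 105 miRNAs and larger for 11. The abundant *Dlk1-Dio3* miRNAs led the first set. The log2 difference was -4.42 for miR-127-3p, -4.45 for miR-434-3p, -4.23 for miR-409-3p and -4.44 for miR-379-5p. It was -5.09 for miR-136-3p and -5.09 for miR-3071-5p, whose counts are the same. O48 cells had 551, 594 and 556 CPM of miR-127-3p where WT cells had 12493, 12678 and 12811. The 11 in the other direction were let-7b-5p, let-7i-5p, miR-1195, miR-124b-3p, miR-1934-3p, miR-200b-5p, miR-205-3p, miR-27a-3p, miR-34a-5p, miR-92a-2-5p and miR-99a-5p.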

How the results depend on the processing

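Counts of calls depended on the embryo libraries and on each cell library. Leaving out 1 library at a time gave 58 to 148 higher and 67 to 201 lower miRNAs, 45 to 111 higher and 49 to 135 lower seed families, and 4 to 24 larger and 84 to 156 smaller differences between the WT and O48 contrasts. The highest miRNA counts were those without embryo library 3, and the lowest those without a cell library. The number of miRNAs tested moved too, from 491 to 706. Lower seed families numbered 63 with library totals only and 79 after thinning. Differences larger in WT numbered 30 without adjustment, 17 with RLE factors, 38 with DESeq2 and 7 with the replicate block. Those smaller in WT numbered 183 without adjustment and 68 after thinning. Same-numbered cell and embryo libraries did not deviate together (correlations 0.053, -0.068 and 0.016), so the numbers do not pair them. The replicate block gave 81 higher and 113 lower miRNAs, 58 and 104 seed families, and 7 larger and 102 smaller differences between the WT and O48 contrasts. The sign of the share difference changed for 2 lists when entries with the same counts were kept once, miR-130 with miR-301 (-0.00158 points) and miR-23/27/24 (-0.101 points). Leaving out libraries moved the share difference across 0 for miR-125 and miR-99/100 (-0.365 to 2.14 points), miR-130 with miR-301 (-0.0204 to 0.0335), the miR-322 cluster (-0.0148 to 0.0136), miR-23/27/24 (-0.240 to 0.264), miR-29 (-0.000301 to 0.0108) and Gnas and Mest (-0.0162 to 0.599). The single miRNAs that changed sign were not called with all 6 libraries, and without embryo library 3 miR-99b-5p, miR-191-5p, miR-27b-3p and miR-450a-5p were. With library totals only the log2 fold change was 0.41 for miR-99b-5p, 0.23 for miR-130b-5p, 0.041 for miR-27b-3p, 0.56 for miR-29a-3p, 0.44 for miR-194-5p and 0.54 for miR-335-3p. With TMM factors set without the miR-290-295, miR-302 and *Dlk1-Dio3* lists it was 0.025 for miR-191-5p, 0.66 for miR-99b-5p, 0.37 for miR-130b-5p, 0.23 for miR-27b-3p, 0.60 for miR-29a-3p, 0.55 for miR-194-5p and 0.66 for miR-335-3p. After thinning it was 0.43 for miR-99b-5p, 0.078 for miR-130b-5p, 0.43 for miR-194-5p and 0.31 for miR-335-3p. RLE factors and DESeq2 gave 0.0933 and 0.0934 for miR-99b-5p and 0.0553 and 0.0556 for miR-335-3p. A mean count filter of 10 gave 0.018 for miR-99b-5p, 0.076 for miR-29a-3p and 0.084 for miR-335-3p, and same counts kept once gave 0.089 for miR-29a-3p and 0.075 for miR-335-3p. No filter gave -0.20 for miR-25-3p, and the replicate block -0.047 for miR-450a-5p. Leaving out libraries gave -1.20 to 0.30 for miR-99b-5p, -0.16 to 0.21 for miR-25-3p, -0.023 to 0.58 for miR-125a-5p, -0.10 to 0.77 for miR-450a-5p, -0.89 to 0.51 for miR-29a-3p, -0.31 to 0.079 for miR-194-5p and -0.24 to 0.16 for miR-335-3p. The cause was not tested.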

Other observations

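Outside the lists, 22 of 237 miRNAs tested were higher in the embryos and 51 lower, beside 17.4% and 21.9% of all miRNAs. In the miR-34 family, known as targets of p53, miR-34b-3p rose from 5.24 to 8.97 CPM in the cells to 77.4 to 95.7 CPM in the embryos (log2 fold change 3.16, adjusted p = 0.00291, edgeR). miR-192-5p, a miRNA of endoderm and liver, fell by 1.33 (adjusted p = 0.0113), from 2905 to 3209 CPM to 1600 to 2017 CPM, while in DKO-SC embryos against O48 cells its log2 fold change was 0.18. It did not pass with library totals (adjusted p = 0.0661) or with TMM factors set without the miR-290-295, miR-302 and *Dlk1-Dio3* lists (adjusted p = 0.142). In the germline X cluster miR-871-3p fell by 1.33 (adjusted p = 0.0192), and under the same scalings it did not pass (adjusted p = 0.105 and 0.220). In the Sfmbt2 cluster miR-466a-3p was at up to 1268 CPM in the cells and at 3629, 7236 and 201 CPM in the embryos, so that embryo library 3 was below the cells and the other embryo libraries above them. It passed without library 3 (log2 fold change 1.51, adjusted p = 0.0026).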
